A study of Mus musculus with 3 samples.

Results

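The canonical histone genes of the mouse are packed into clusters, and this account follows HBO1 at each of them in mouse embryonic stem cells (ESCs). They were taken as every protein-coding gene of the GENCODE vM21 annotation of mm10 whose symbol starts with Hist1h, Hist2h, Hist3h or Hist4h. This gave 67 of 21938 protein-coding genes, of which 6 encode linker histone H1, 18 encode H2A, 18 encode H2B, 12 encode H3 and 13 encode H4. The 54 Hist1h genes lie on chromosome 13, the 10 Hist2h genes on chromosome 3, the 2 Hist3h genes on chromosome 11, and Hist4h4 alone on chromosome 6.

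All samples came from Oct1 deficient ESCs, in which the Oct4 paralog Oct1, the product of Pou2f1, is missing, as the labels and the methods have it. In the paper, the table of HBO1 peaks is headed as coming from WT ESCs, and which of the genotypes is right was not tested. The cells were cultured with 1 µM of the MEK inhibitor PD03259010 (spelled so in the labels, and PD0325901 in the methods), 3 µM of the GSK3b inhibitor CHIR99021 and ascorbic acid on feeder fibroblasts that were depleted before use, and fixed in 1% formaldehyde. Whether the line is a single clone is not given in the sources used here. There were 2 HBO1 ChIP samples, for which 1 peak list was deposited, and 1 input sample, which is sheared chromatin without immunoprecipitation. With no other genotype and no second peak list there was no comparison between conditions and no spread between replicates. The intervals below reflect counting error alone, and other sources of error were not measured. They treat genes or peaks as separate draws, although neighbouring genes share peaks. The antibody of the second ChIP sample is labelled HBO2 while its title names HBO1, and it was taken as HBO1. The input held 31973678 aligned read ends, with a median of 2 per 1-kb window. As a check of the cell label, 8 genes of pluripotency factors were listed. All 8 had an HBO1 peak within 1 kb of a TSS, beside 21.7% of all protein-coding genes. Among them were Nanog with a fold enrichment of 8.88 and Sox2 with 6.85, although a peak is not a measure of expression. Pou5f1 was also among them, under a rule that takes every annotated transcript start. One of its 2 peaks, enriched 5.16-fold, had its summit inside the gene, 3256 bp from the outermost TSS. The paper, by contrast, reports no HBO1 peak within 2 kb of genes with an octamer such as Pou5f1.

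Replication-dependent histone genes are transcribed in S phase to package newly made DNA. They are short and mostly without introns, and their mRNAs end in a conserved stem-loop instead of a poly(A) tail. The stem-loop is bound by SLBP, and transcription depends on the coactivator NPAT, which gathers with the clusters in histone locus bodies. Many H2A and H2B genes are arranged head to head and share the short stretch between their start codons as a promoter, in which octamer and CCAAT elements are known. HBO1, encoded by Kat7, is the acetyltransferase of complexes that modify histones H3 and H4 and contain an adapter such as Jade1.

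The sequences of 2 head-to-head promoters show the region that the peaks left out, for 1 pair with HBO1 peaks on both genes and 1 pair with none. Between Hist1h2ae and Hist1h2bg the plus strand of mm10 is shown from gene to gene, at chr13:23571221-23571395. Between the testis-type genes Hist1h2ba and Hist1h2aa it is shown at chr13:23934207-23934411, with 50 bases beside each gene left out. Capitals mark the octamer ATTTGCAT and the CCAAT box on either strand.
Hist1h2ae/Hist1h2bg: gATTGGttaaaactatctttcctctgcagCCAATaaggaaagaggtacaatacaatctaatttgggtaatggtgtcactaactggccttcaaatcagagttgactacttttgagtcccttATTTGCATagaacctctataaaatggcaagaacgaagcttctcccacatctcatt
Hist1h2ba/Hist1h2aa: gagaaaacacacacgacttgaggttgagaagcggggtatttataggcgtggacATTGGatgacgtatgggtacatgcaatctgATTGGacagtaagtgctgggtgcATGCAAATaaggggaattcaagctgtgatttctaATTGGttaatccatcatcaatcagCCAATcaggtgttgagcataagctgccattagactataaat
Both stretches held 1 octamer, and they held 2 and 4 CCAAT boxes.

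The sequences under the peaks are coding. For the gene of each histone type with the highest fold enrichment, the 61 bases around the summit are given on the strand of the gene, with the 5 bases at the summit in capitals. They lie at chr13:21780292-21780352 (minus) for Hist1h1b, chr3:96239988-96240048 (minus) for Hist2h2aa2, chr3:96270014-96270074 (plus) for Hist2h2bb, chr13:23562069-23562129 (minus) for Hist1h3e and chr13:23581747-23581807 (plus) for Hist1h4d.
Hist1h1b: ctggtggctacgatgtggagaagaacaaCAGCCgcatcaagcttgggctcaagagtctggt
Hist2h2aa2: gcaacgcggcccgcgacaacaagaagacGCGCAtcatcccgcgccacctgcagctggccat
Hist2h2bb: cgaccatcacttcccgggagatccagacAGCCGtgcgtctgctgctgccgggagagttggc
Hist1h3e: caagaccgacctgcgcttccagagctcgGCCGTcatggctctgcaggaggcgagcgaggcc
Hist1h4d: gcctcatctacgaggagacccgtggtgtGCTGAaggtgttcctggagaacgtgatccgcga
The GC content of these stretches ran from 54.1% for Hist1h1b to 68.9% for Hist1h3e.

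The first question was how many of the histone genes HBO1 occupied. A peak within 1 kb of a transcription start site (TSS) or in the gene was found for 62 of 67 histone genes (92.5%; the exact binomial 95% interval of 83.4 to 97.5% reflects counting error alone). Over all protein-coding genes the same rule found a peak for 29.5%, or 6469 of 21938. With peaks within 1 kb of a TSS only, 61 of 67 histone genes had one (91.0%), beside 21.7% of all protein-coding genes. The gene that dropped out was Hist1h1d, whose annotated start lies far upstream of its coding sequence. The annotated start of Hist1h2be also lies far upstream, and Hist1h2be then counted only through the peak of Hist1h1e, while its own peak, on the coding sequence, was left out.

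The share was also read beside genes alike in GC content or in the lack of introns. The middle range of GC content in the 1 kb around the histone TSSs was 50.0 to 56.8%. In this range 27 of 32 histone genes had a peak (84.4%), against 1501 of 5691 other protein-coding genes (26.4%). Of other genes with 1 exon, 111 of 1256 had a peak (8.84%), while 57 of 62 histone genes with 1 exon did (91.9%). In the same GC range 14 of 245 other genes with 1 exon had one (5.71%). The histone genes thus stood above genes alike in either property. The comparison genes were not matched for transcription, which was not measured here. No test was made of these shares, because neighbouring genes share peaks.

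By histone type, all 12 genes for H3 and all 13 for H4 had a peak. H3 and H4 are the histones that HBO1 complexes acetylate, but the genes of the other types were almost as complete. A peak was found for 16 of 18 H2A genes, 16 of 18 H2B genes and 5 of 6 H1 genes. No test between types was made, because neighbouring genes share peaks and 1 or 2 genes make up each difference.

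By cluster, the Hist1h genes fall into 2 segments of chromosome 13, taken as runs of histone genes less than 300 kb apart. All 23 genes of the segment at chr13:21715763-22043676 had a peak, and so did 28 of 31 in the segment at chr13:23531050-23934851. The 10 Hist2h genes at chr3:96219865-96270132 all had one, as did Hist4h4 at chr6:136801553-136804415. Neither Hist3h2ba nor Hist3h2a, at chr11:58948920-58956830, had a peak.

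The 5 genes without a peak were these 2 and 3 on chromosome 13. Hist1h1t encodes the linker histone of spermatocytes, and Hist1h2ba and Hist1h2aa encode the testis forms of H2B and H2A. The nearest HBO1 peak lay 2.23 kb from the TSS of Hist1h1t, on Hist1h4c, which encodes H4. It lay 56.9 kb and 56.6 kb from those of Hist1h2ba and Hist1h2aa, and 29.2 and 23.5 kb from those of Hist3h2ba and Hist3h2a. The testis pair stands at the end of the cluster and apart from the other genes, while Hist1h1t lies among genes with peaks.

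The input at these 5 genes was read beside that of the others. Around their TSSs 28 to 62 input read ends fell in 1 kb, within the range of the genes with a peak, which was 0 to 169 with a median of 67. Their coding sequences held 10.1 (Hist3h2ba), 10.8 (Hist3h2a), 3.35 (Hist1h1t), 9.19 (Hist1h2ba) and 8.53 (Hist1h2aa) input read ends per 100 bp, where genes with a peak ranged from 4.50 to 24.3. Hist1h1t alone lay below that range. In GC content they ran from 50.5 to 54.3%. At least 96.2% of the input read ends at each of them had a mapping quality of 20 or more, so they could be told from their copies.

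**Figure D1:**
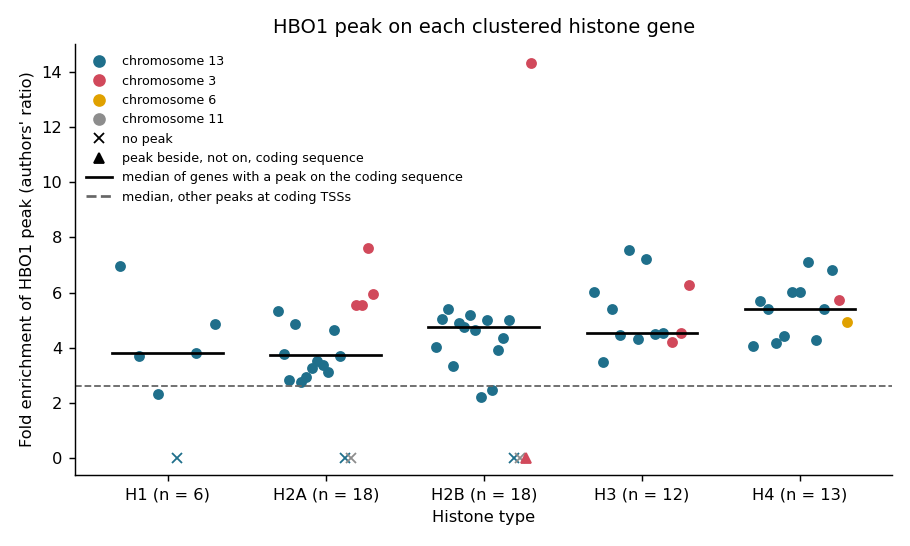
Fold enrichment of the HBO1 peak on each of the 67 histone genes, as the authors' ratio over the local background, by histone type and coloured by chromosome. Crosses at 0 are the 5 genes without a peak, the triangle is Hist2h2be, bars are medians of genes with a peak on the coding sequence and the dashed line is the median of other peaks near coding TSSs (2.62); nearly all points lie above that line and Hist2h2bb stands alone at 14.3.

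The 62 genes were served by 61 distinct peaks, of which 33 lay near 1 histone gene, 23 near 2 and 5 near 3 or more. These peaks had a median fold enrichment of 4.64 and a median −log10 q of 41.3, where q is the false discovery rate that the authors' peak caller gave. The other 13762 peaks had medians of 3.80 and 6.98. Of the 61 peaks 59 had a −log10 q of 10 or more (96.7%), beside 25.2% of all 13823 peaks. Ranked by −log10 q, 8 of the first 50 peaks, 18 of the first 100 and 32 of the first 200 were at histone genes. Ranked by fold enrichment, only 1 of the first 200 was. Against all other peaks, histone peaks therefore stood out in significance more than in fold. Other peaks within 1 kb of a coding TSS had a median fold of 2.62 and a median −log10 q of 7.86.

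A −log10 q grows with the reads at a site, so peaks of like input were set side by side. The 1 kb around histone summits held a median of 59 input read ends. It was 18 for other peaks and 83 for those of them within 1 kb of a coding TSS. The middle range at histone summits was 46 to 73. The 31 histone peaks in that range had a median fold enrichment of 4.48 and a median −log10 q of 44.1. The 869 other peaks in that range near a coding TSS had medians of 2.65 and 7.77. The highest −log10 q among those 869 was 58.5, and 101 among the 31, while the highest fold was 7.75 among the 869 and 7.52 among the 31. At like input the histone peaks were thus higher in both medians.

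**Figure D2:**
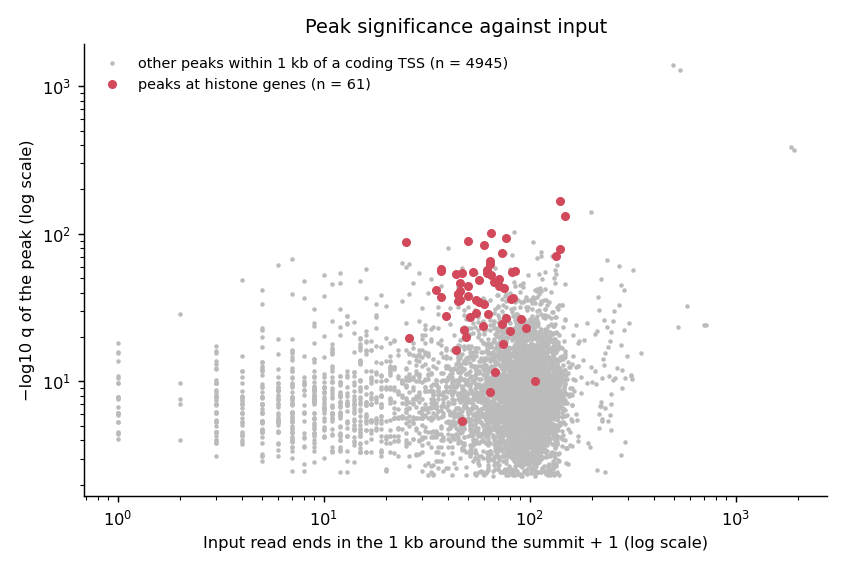
The −log10 q of each peak against the input read ends in the 1 kb around its summit plus 1, both on log scales, for 61 peaks at histone genes and 4945 other peaks within 1 kb of a coding TSS. The histone peaks span 24 to 147 input read ends and 59 of them lie at a −log10 q of at least 10, while those of Hist1h2bh and Hist1h2bf, at 5.43 and 8.45, lie among the bulk of the other peaks.

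Values by type are given for the 61 genes with a peak that overlaps the coding sequence, each with the peak that covers most of it. Among the core histones H4 had the highest median fold enrichment at 5.39, from 4.07 (Hist1h4j) to 7.10 (Hist1h4d). H2B followed with 4.76, from 2.23 to 14.3, then H3 with 4.53, from 3.50 to 7.52, and H2A with 3.74, from 2.75 to 7.61. For the linker histone H1 the median was 3.81, from 2.33 (Hist1h1e) to 6.97 (Hist1h1b). The ranges of all types overlap. Input also varied by type. Per 1-kb summit window, its median was 45 read ends for H4 and 49 for H2B. It was 66.5 for H2A, 73 for H3 and 82 for H1. The part of input in this order of folds was not tested. In −log10 q the order was another, with H3 highest at a median of 68.4, then H4 at 42.6, H2B at 38.9, H1 at 35.1 and H2A at 27.7.

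Single genes also differed within types. Hist2h2bb, an H2B gene on chromosome 3, stood highest in fold enrichment at 14.3, with its −log10 q at 88.0. Its coding sequence held 4.50 input read ends per 100 bp, the fewest of any gene with a peak. Next came Hist2h2aa2 (H2A) with 7.61, Hist1h3e (H3) with 7.52, Hist1h3c (H3) with 7.21 and Hist1h4d (H4) with 7.10. At the other end, fold enrichment and −log10 q were 2.23 and 5.43 for Hist1h2bh, 2.33 and 10.1 for Hist1h1e, and 2.47 and 8.45 for Hist1h2bf. The 3 lowest were called with far less significance than the median histone gene, at 41.4.

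By −log10 q the highest were Hist2h2aa2 at 167 and Hist2h2aa1, which has the same coding sequence, at 133. In the 1 kb around their summits lay 139 and 147 input read ends, where the median histone peak had 59. On their coding sequences 11.8% and 12.7% of input read ends had a mapping quality of at least 20. Hist1h3e followed at 101, Hist2h3b at 94.0 and Hist1h3c at 89.5. Of the 5, all but Hist1h3e and Hist1h3c lie on chromosome 3.

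On chromosome 3 the 10 genes were served by 8 peaks in 50268 bp, against 24 peaks for 23 genes and 28 peaks for 31 genes in the segments of chromosome 13. Hist2h2ab and Hist2h2ac, a pair of H2A genes, shared 1 peak at chr3:96219874-96220900, enriched 5.55-fold at a −log10 q of 62.8, whose summit lies in Hist2h2ac. The H2B gene Hist2h2be was counted through that peak alone, which does not reach its coding sequence. The H3 genes Hist2h3c2 and Hist2h3c1 had folds of 4.22 and 4.52, and Hist2h3b had 6.29. Hist2h4, for H4, had 5.74, and Hist4h4, the H4 gene on chromosome 6, had 4.95 with a −log10 q of 27.8. The 4 H2A genes of chromosome 3 ranged from 5.55 to 7.61 in fold enrichment, above the 12 H2A genes with a peak on chromosome 13, which ranged from 2.75 to 5.35. Of the 4, however, 2 share a peak and 2 have the same coding sequence, so they are not 4 independent values. For H3 the ranges of both chromosomes overlap, with medians of 4.54 over 9 genes on chromosome 13 and 4.52 over 3 on chromosome 3.

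A part of chromosome 3 had extra input in these cells, and the distance of the Hist2h genes from it was therefore measured. Between 100 and 140 Mb of chromosome 3, the input was 2.37 times that of windows of like GC content on other autosomes. The Hist2h cluster ends 3.73 Mb before that span. In the 1 Mb around it relative input was 1.19, within the central 95% of 1-Mb windows of other autosomes, which was 0.695 to 1.24 (n = 2252). It was 1.29 with all read ends and 1.77 without GC correction, both above 1.24, though that range was computed only with the correction and at a mapping quality of 20 or more. Around the segments of chromosome 13 it was 0.98 and 1.09, around the chromosome 11 genes 1.08 and around Hist4h4 1.19. The 10 bins from 90 to 100 Mb ranged from 0.861 to 1.26, and the 40 bins from 100 to 140 Mb from 1.69 to 3.42. The Hist2h genes thus lay outside the span of 100 to 140 Mb.

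**Figure D3:**
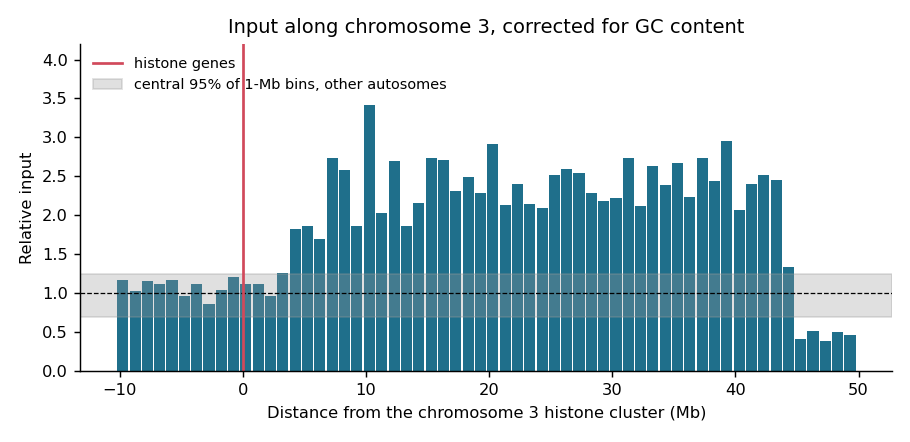
Input along chromosome 3 relative to windows of like GC content on other autosomes, in 1-Mb bins, by distance from the Hist2h cluster (red line at 0). The grey band is the central 95% of bins on other autosomes (0.695 to 1.24); the bins beside the cluster lie in it or at its edge, and those that make up the raised span start 3.73 Mb away.

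The second question was where on the gene HBO1 lay. Of the 61 distinct peaks, 60 had the summit inside a histone coding sequence. A summit lay in the gene for 60 of 67 histone genes (89.6%), against 27.7% of all protein-coding genes and 7.01% of other genes with 1 exon. For 60 of 61 peaks (98.4%, exact 95% interval 91.2 to 100%) the summit was downstream of the nearest histone TSS. The remaining peak, at chr13:21721461-21721754 with a fold enrichment of 2.48, lies upstream of Hist1h2bm. It covers Hist1h2aj, an H2A gene that the annotation lists as an unprocessed pseudogene at chr13:21721457-21721808 and that the rule therefore left out. Of the 3 annotated Hist pseudogenes it was the one with a peak, while Hist3h2bb-ps and Hist1h2al had none.

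Along the gene, peaks began close to the start codon and ended just after the stop codon. Counted from the start codon, with negative values upstream, the upstream edge lay at a median of −6 bp, from −87 to 136 bp, and within 100 bp in 60 of 61 genes. The downstream edge lay at a median of 111 bp beyond the end of the coding sequence. At least 90% of the coding sequence was covered in 51 of 61 genes. The start codon was inside the peak for 37 genes and the TSS for 17. The median peak width was 498 bp.

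Summits lay at a like distance from the start codon in nearly all genes. Core histone coding sequences are themselves alike in length, for example 309 bp at Hist1h4d and 408 bp at Hist1h3e. The median was 224 bp, and 60 of 61 genes had it between 150 and 310 bp. The exception, at 755 bp, was Hist2h2ab, which shares the peak of Hist2h2ac. By type the medians were 198 bp for H4, 214.5 bp for H2A, 227 bp for H3, 232 bp for H1 and 252 bp for H2B. H1 genes have longer coding sequences and had wider peaks, with a median of 708 bp against 438 bp for H2B and 487 bp for H4, yet their summits lay no further in than 309 bp.

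In H2B genes the peak started later than in the others. The upstream edge was at a median of 14 bp for H2B, against −4 bp for H1, −15.5 bp for H2A, −24.5 bp for H3 and −25 bp for H4. The ranges overlap, from −10 to 136 bp for H2B and from −58 to 21 bp for H2A. The widest peaks were on H2A genes of chromosome 3 and on an H1 gene, with 1027 bp at Hist2h2ab and Hist2h2ac, 1021 bp at Hist1h1c, 994 bp at Hist2h2aa1 and 993 bp at Hist2h2aa2. At Hist2h2aa2 and Hist2h2aa1 the peak reached 934 and 939 bp beyond the start codon.

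**Figure D4:**
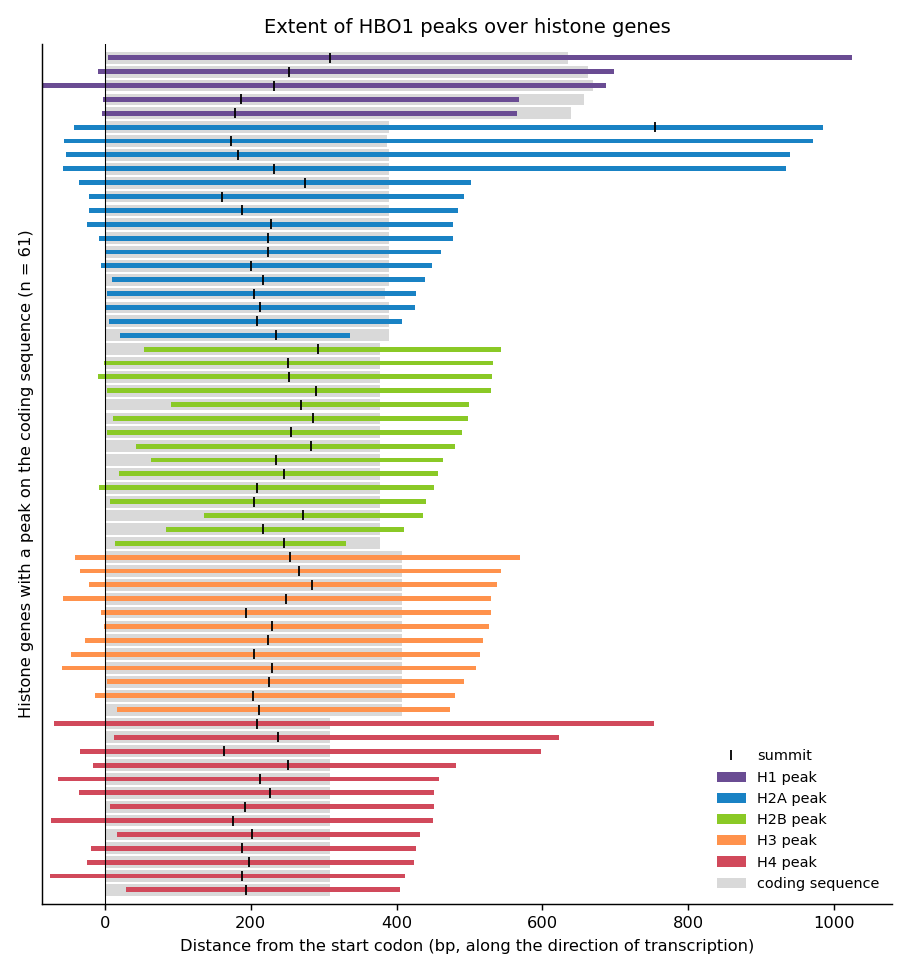
HBO1 peaks (coloured bars, by type) on the 61 histone genes with a peak on the coding sequence (grey bars), each aligned at the start codon, in bp along the direction of transcription. Black ticks are summits, 60 of them between 150 and 310 bp; peaks start near 0 and end past the grey bars in most genes.

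The share of genes inside a peak was taken at the centre of 50-bp bins, named by the position of their first base from the start codon. In the 3 bins from −250 to −150 bp, a part of the promoter stretch, it was 0% of the 61 genes. Around them the share was 6.56% in the bin at −300 bp, 1.64% at −100 bp and 32.8% at −50 bp. It was 88.5% in the first 50 bp of the coding sequence and 100% in the 4 bins from 150 to 300 bp. In the bin at −600 bp it was 39.3%, and head-to-head neighbours lie at such distances.

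The head-to-head pairs showed the same at each site. There were 12 H2A/H2B pairs, with start codons 278 to 334 bp apart and a median of 299 bp. No summit lay between the start codons and no midpoint was in a peak. In 5 of the 11 pairs with a peak on either gene no base between the start codons was covered, and the most was 17.4%, between Hist2h2ac and Hist2h2be. In 10 pairs both genes had a peak of their own. At Hist1h2ae and Hist1h2bg, whose shared promoter is printed above, the folds were 3.39 and 5.0. Of the 10 pairs the H2B gene had the higher fold in 7 and the H2A gene in 3, with medians of 4.70 and 3.32. The gene on the plus strand was the higher in 8 of 10. The H2B gene was the one on the plus strand in 7 of the 10, so type and strand largely coincided. Input differed as well. In the 1 kb around the summits of Hist1h genes its median was 49.5 read ends for H2B and 66 for H2A. The part of input in these folds was not tested.

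The input had a similar shape along these genes. Coding sequences of histone genes held a median of 11 input read ends per 100 bp, and the 300 bp upstream of the start codon 2.33. All 62 genes with a peak had more on the coding sequence. So did 4 of the 5 genes without one, with medians of 9.19 on the coding sequence and 0.667 upstream, the exception being Hist1h1t. Between the start codons of the head-to-head pairs it was 2.24, from 0.656 to 3.73. In 50-bp bins the mean over the 61 genes was 1.10 to 1.57 read ends in the bins at −250 to −150 bp and 6.64 to 7.56 in those at 100 to 250 bp. Fold enrichment is a ratio over the local background. The paper's methods do not state whether this input served as the control in peak calling. The part of the uneven input in where peaks were called was not tested.

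**Figure D5:**
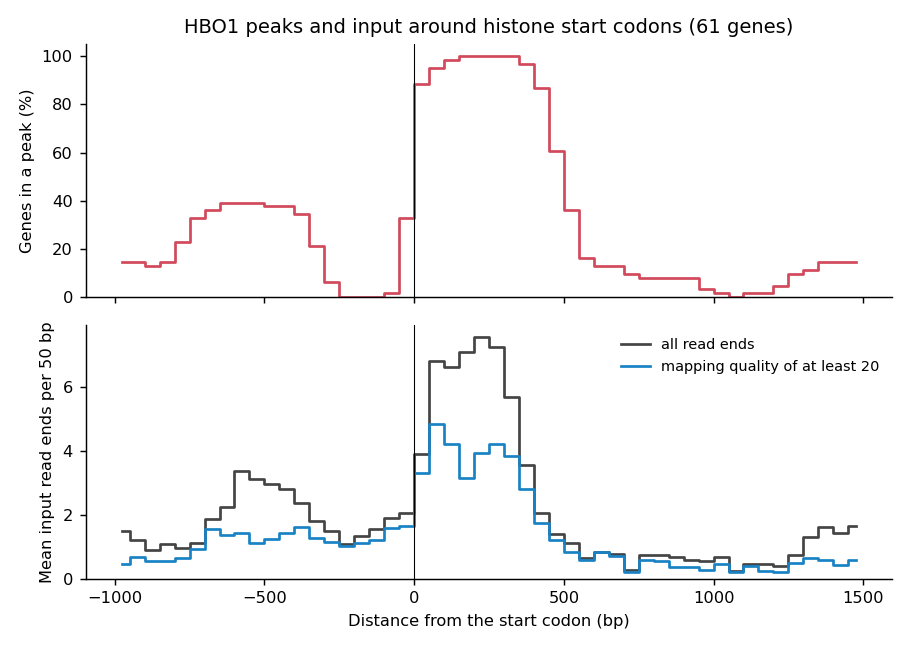
Percent of the 61 histone genes that lie in an HBO1 peak (top) and mean input read ends per 50 bp (bottom), by distance from the start codon in bp. The share in a peak is 0% in the bins at −250 to −150 bp and 100% in those at 150 to 300 bp, and the input is also highest over the first 350 bp downstream, for all read ends (black) and for those with a mapping quality of at least 20 (blue).

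Histone genes of a type are near copies, so a read can fit several of them. The 67 coding sequences comprised 62 distinct ones, and 10 genes formed 5 identical pairs. Between coding sequences of equal length the median identity was 96.7% for H2A, 97.4% for H2B, 97.2% for H3 and 93.9% for H4. A mapping quality of at least 20 was reached by a median of 82.0% of input read ends around histone TSSs. It was 0% at Hist1h2bq, Hist1h2br, Hist1h2ao and Hist1h2ap. Peaks at such genes may hold reads from the other copy, and how the authors placed reads that fit several sites is not given in the sources used here.

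The genes were also counted by the mapping quality of the input read ends around their TSSs, since the ChIP reads under the peaks were not analysed here. Where at least 95% of the input read ends had a mapping quality of 20 or more, 18 of 23 genes had a peak, with a median fold of 5.39 from 2.33 to 14.3, and the other 5 are the genes without a peak. From 50 to 95% all 31 had one, with a median of 4.54, and under 50% all 12, with a median of 4.64. Hist1h2be, whose annotated TSS had no input read end in 1 kb, had a peak of 3.92 on its coding sequence. Of the genes whose summit sequences are printed above, Hist1h1b, Hist1h3e, Hist1h4d and Hist2h2bb belong to the genes of at least 95%. Hist2h2aa2 belongs to those under 50%, with 47.7% around its TSS and 11.8% on its coding sequence. The classes rest on the TSS, while nearly all summits lay on the coding sequence, where the share could differ. Of the class from 50 to 95%, Hist1h2ad had 32.3% there, Hist1h2ai 34.9%, Hist1h2an 35.5%, Hist1h2bk 45.5% and Hist1h2ag 46.7%. Hist1h3h was also under 50%. Others of that class were higher there, such as Hist1h2bm with 100% against 68.5%. Hist1h1d and Hist1h3f were classed on 3 and 4 read ends. Classes by coding sequence were not counted. The part of multiply mapped reads in the peaks was not tested.

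Genes with identical coding sequences did not always have the same value. Hist1h2ao and Hist1h2ap had folds of 4.85 and 2.75. Hist1h4m and Hist1h4n had 5.39 and 4.17, and Hist2h2aa2 and Hist2h2aa1 had 7.61 and 5.94. The pairs Hist1h2bq and Hist1h2br, at 4.88 and 4.76, and Hist2h3c2 and Hist2h3c1, at 4.22 and 4.52, were closer. These values are uncertain for the reason given.

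The third question concerned the octamer, since the study is about factors that bind it. Promoters, from 250 bases before to 50 after the TSS, came from RefSeq on GRCm38.p6 and were matched for 62 of 67 genes. The octamer ATTTGCAT, the site of Oct4 and Oct1, was found on either strand in 14 of them (22.6%), against 1.75% of 27025 promoters. It was in 7 of 18 H2A and 7 of 16 H2B promoters, and in none of 6 for H1, 10 for H3 and 12 for H4. Of the 14 promoters, 11 belong to genes with a peak and 3 to genes without, which are Hist3h2a, Hist1h2ba and Hist1h2aa. An octamer was thus in 11 of 57 promoters of genes with a peak (19.3%) and in 3 of 5 of genes without.

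The 14 promoters held 11 distinct octamers, because head-to-head genes share them. None of the 9 at genes with a peak lay in a peak. The nearest peak edge was 83 to 235 bp away, with a median of 147 bp over these 9. It was 87 bp for the octamer between Hist1h2ae and Hist1h2bg, and 147 bp for that of Hist2h2bb. The MORE, the palindromic relative of the octamer that the study set against it, had no match in the 62 promoters with 1 mismatch allowed, beside 0.0999% of all promoters. No match says only that these letters are not in this window.

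Other elements of histone promoters were counted likewise. CCAAT was found on either strand in 53 of 62 promoters (85.5%), against 37.9% of all. It was in all promoters of H1, H2A, H2B and H3 genes and in 3 of 12 for H4. TATAAA was found in 35 (56.5%), against 14.2%.

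The stem-loop that ends histone mRNAs was found within 300 bases after the stop codon in 65 of 67 genes, all but Hist1h2an and Hist2h2be. It is shown in the 3 commonest spellings, with its number of genes. Replication-dependent histone mRNAs end in it, and in most genes with a peak it started inside the peak.
41 genes: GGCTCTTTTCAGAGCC
9 genes: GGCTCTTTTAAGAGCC
8 genes: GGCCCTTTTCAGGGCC
The last was found in H4 genes alone. The stem-loop started a median of 31 bases after the stop codon, from 22 to 59. In 7 of 60 genes with both it started beyond the downstream edge of the peak, so in the other 53 its start lay inside. The 5 genes without a peak all have a stem-loop.

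Most peaks within the clusters of chromosome 13 were at histone genes, though no rate of peaks over the genome was set beside this. Of the 55 peaks in the 2 segments of chromosome 13, 52 were at histone genes and 3 were not. Other protein-coding genes inside the clusters numbered 9, among them Hfe, the regulator of iron uptake, and the anion transporter genes Slc17a1 to Slc17a4. Of these, 1 of 9 had a peak, beside 29.5% of all protein-coding genes, which was Prss16, a serine protease of the thymus, with a fold enrichment of 4.61 and a summit 1299 bp from its TSS. None of the 9 had one within 1 kb of its TSS, beside 21.7%.

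Among genes whose products act on histone genes and their mRNAs, 12 of 21 had a peak, beside 29.5% of all protein-coding genes. That of Npat was enriched 2.18-fold at a −log10 q of 4.27, and that of Slbp 2.61-fold at 8.21. Those of the cap-binding subunit Ncbp2 (2.65), the cyclin genes Ccne1 (2.17) and Ccne2 (2.61), the regulator E2f1 (2.56) and Pou2f1 itself (2.40) were of like height. Srrt, for a partner of the cap-binding complex, had 2.07. Sympk, for a scaffold of the cleavage complex, had 3.17, Zfp473 3.79 and Cstf2 4.49. The summit at Zfp473 lay 3177 bp from the outermost TSS. Where a listed gene had several peaks, the values are those of a single peak. The highest was 7.65 at Cpsf3, for the nuclease that cuts histone pre-mRNA, with its summit 12014 bp from the TSS. None was found at Casp8ap2, which encodes FLASH, at Hinfp, which encodes a factor for H4 promoters, or at Lsm10 and Lsm11 of the U7 particle. For other peaks at coding TSSs the median was 2.62 and the lower quartile 2.22, so Slbp was near the median and Npat below that quartile.

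Variant histone genes, which are mostly not tied to S phase, were counted apart. They lie outside the clusters, except that H2afj is 3.83 kb from Hist4h4. A peak was found for 8 of 13, beside the same 29.5%. The highest was on H2afx, the H2A form phosphorylated at DNA breaks, enriched 8.17-fold at a −log10 q of 103. H3f3b, for H3.3, followed with 6.0 and 87.8, and its summit lay 3647 bp from the outermost TSS. H3f3a had 3.04 and 16.1, and H1fx 3.13 and 16.0. H2afz had 2.94 and 56.6, and it lies at chr3:137864487-137866922, within the span of raised input on chromosome 3, whose part in that value was not tested. H2afy, H2afy2 and H2afj had folds of 2.02 to 2.76, while H1f0, H1foo, H1fnt, H2afv and Cenpa had no peak. Of 18 histone chaperone genes 14 had a peak, again beside 29.5%, with folds from 2.17 (Nap1l4) to 5.83 (Chaf1a, 17531 bp from the TSS), among them Npm1 with 4.28, Supt16 with 3.55 and Nasp with 3.30.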

How the data were processed

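Chromatin of Oct1 deficient ESCs was sequenced after HBO1 immunoprecipitation (2 samples) and without it (1 input). Reads had been mapped by the authors to mm10 (Novoalign 4.03.01), and MACS2 had been run with a q limit of 0.005 and a max-gap of 100. The deposited peak list holds the fold enrichment, the authors' ratio over the local background, with a −log10 q from the authors' peak caller, and a display score that the authors' caller wrote and that was not used. The deposited input gives aligned read ends with a mapping quality score from the authors' aligner, without normalization. How the ChIP samples were combined, and whether duplicate or multiply mapped reads were removed, is not given in the sources used here.

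Genes, TSSs and coding sequences came from GENCODE vM21, and promoters from RefSeq on GRCm38.p6. Distances ran from the peak edge. Each input read end counted once, at its midpoint. Relative input used those of mapping quality 20 or more, compared with 1-kb windows of the same 2% class of GC content (30 to 65%, at most 200 read ends) on autosomes other than chromosome 3. The rule that assigns peaks to genes was run on simulated peaks of known position. The motif counts were not checked in this way. Python 3.11.15, pandas 2.3.3, numpy 2.4.6, scipy 1.17.1 and matplotlib 3.10.9 were used. Histone genes and the gene lists were chosen with earlier results of these data known. Values were given for the members at the 5 peaks of highest fold enrichment and of highest −log10 q, all those on chromosomes 3, 6 and 11, those without a peak, and list genes, and Hist1h2bh, Hist1h2bf, Hist1h1e and the pairs of copies were named after their values were seen. With 1 peak list no p-value was computed. Alternatives covered the q limit, the distance rule, input, mapping quality and chromosomes.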

Additional observations from a re-analysis of the deposited data

How the results depend on the processing

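With peaks limited to a −log10 q of 5 or of 10, with 500 bp or 2 kb, with the TSS alone, with the outermost TSS, with the summit in place of the peak edge and with overlap of the gene, 61 or 62 of 67 histone genes had a peak, and all 40 counts by type under these 8 alternatives kept their value or differed by 1 gene. The share over all protein-coding genes moved from 29.5% to 23.5% and 9.92% under those limits of −log10 q, to 21.7% with the TSS alone, 18.7% with the outermost TSS and 28.2% with overlap of the gene. Leaving out peaks with over 10 input read ends in 1 kb left 0 histone genes, 0 distinct peaks and 8.79% of protein-coding genes, since each histone peak had at least 24. In alternatives added after the data were seen, 49 of 54 genes had a peak where at least 50% of input read ends had a mapping quality of at least 20, 52 of 57 without chromosome 3, and 11 of 13 without chromosome 13. The share of input read ends in the first of these was taken around the TSSs, not on the coding sequences. The median input of 64 read ends around histone TSSs was 45 at a mapping quality of at least 20. Relative input around the Hist2h genes was 1.77 without GC correction, 1.29 with all read ends and 1.15 over 2 Mb, and the first and second of these lie above the range of other autosomes given with the reported value. Octamer matches numbered 31 of 62 with 1 mismatch (50.0%, beside 18.6% of all promoters). No paired analysis was possible because the ChIP samples share 1 peak list, and for the same reason no replicate could be left out. The depth of the ChIP samples behind each peak was not analysed here, and it limits what the absence of a peak shows.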
